A study of Saccharomyces cerevisiae with 227 samples.

Results

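In the yeast Saccharomyces cerevisiae, 8 genes of fatty acid synthesis, desaturation and hydroxylation were followed through the loss and the return of oxygen and through chemical inhibition of respiration. They were OLE1 (YGL055W), MGA2 (YIR033W), SPT23 (YKL020C), ACC1 (YNR016C), FAS1 (YKL182W), FAS2 (YPL231W), SCS7 (YMR272C) and SUR2 (YDR297W). They were taken by their open reading frame names as a set of 1 pathway, and all 8 were found among the 5609 genes of the arrays, each under the same symbol in the RefSeq annotation.

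Acc1 carboxylates acetyl-CoA to malonyl-CoA, and the cytosolic fatty acid synthase, built from the Fas1 and Fas2 subunits, joins these units into saturated fatty acids. Ole1 is the only fatty acid desaturase of this yeast. It sits in the endoplasmic reticulum and uses molecular oxygen to put the double bond into palmitoleate and oleate, so that cells without oxygen depend on unsaturated fatty acid from the medium. Mga2 and Spt23 are related membrane-bound transcription activators of OLE1. Each is made as an inactive precursor in the endoplasmic reticulum membrane and is released by proteasome-dependent processing when the membrane is short of unsaturated chains. Scs7 and Sur2 also use oxygen, Scs7 to hydroxylate the very long chain fatty acid of ceramide and Sur2 to hydroxylate the long chain base, which turns dihydrosphingosine into phytosphingosine.

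The strain was JM43, a MATα [ρ+] laboratory strain that carries ura3-52, trp1-289, his4-580 and the leu2-3 and leu2-112 mutations, or an msn2/4 mutant of the stress regulator genes MSN2 and MSN4, whose alleles are not given in the sources used here. Every culture grew in a gas-sparged batch fermentor in medium with Tween 80, ergosterol and antifoam, on galactose (SSG-TEA) or glucose (SSD-TEA). Tween 80 carries oleate, so the product of Ole1 was supplied in all groups, controls included. The 227 arrays made 7 time series, which are named here by their treatment. In anaerobiosis, in galactose or in glucose, wild type cells were moved from air to oxygen-free nitrogen at 0 generations and followed to 6 generations, and the msn2/4 mutant was followed in galactose to 2 generations. In re-aeration, in galactose or in glucose, cells held in nitrogen for 6 generations were returned to air and followed to 7.6 generations. In antimycin A in air, cells on galactose were treated with 1 μM of this inhibitor of the cytochrome bc1 complex and kept in air for 3 generations. The label of its 0 generation arrays also names the inhibitor in the medium, while the methods place that harvest before the addition, and these arrays are read here as the untreated control. In anaerobiosis with antimycin A, cells that had grown in air with the inhibitor for 3 generations were moved to nitrogen with the inhibitor still present, so the arrays at 3 generations of antimycin A in air served as its control. A group is 1 time point of 1 series and held 3 arrays, except 0.38 generations of anaerobiosis in glucose with 2.

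Each value is a log2 ratio of the sample (Cy3) to a reference RNA pool (Cy5), as deposited. The pools differed between series, so a level could not be set against that of another series, and only the change from a series' own control was compared. The base and the direction of the logarithm were not stated and were read from the data. MSN2 had a median log2 ratio of -4.84 in the 15 arrays of the msn2/4 mutant and of 0.08 in the 42 arrays of wild type anaerobiosis in galactose, which sets the direction as sample over reference. Array medians lay between -0.079 and 0.088, and the median change over all genes lay between -0.10 and 0.07 at every time point, so a shift of all RNA together would not be visible. Fewer cells in a given state and less RNA in each cell cannot be told apart in such bulk samples. CYC1, an oxygen-induced respiratory gene, was lower and the anaerobic genes DAN1 and HEM13 were higher at the end of all 4 anaerobiosis series, each called, and all 3 turned the other way in both re-aeration series. Their largest called changes were 6.78 for CYC1 at 6.13 generations of re-aeration in galactose, -5.78 for DAN1 at 7.6 and -5.12 for HEM13 at 6.3 generations of re-aeration in glucose. The hypoxic gene ANB1, whose near-identical paralogue HYP2 makes its signal uncertain, did not run with HEM13 and only in part with DAN1. In anaerobiosis in glucose DAN1 too was called lower at some time point, whereas HEM13 was called only higher. ANB1 was lower at 0.19 to 0.38 generations of anaerobiosis in both media, most in glucose at 0.25 generations (-2.04), and was called higher late in glucose, by 1.36 at 6 generations, but not in galactose, where it changed by 0.70. On re-aeration ANB1 was first higher in galactose, by up to 0.93, and was lower in glucose from 6.6 generations. None of the 4 was called in antimycin A in air, where 1 was higher and 4 were lower at an unadjusted p under 0.05 at some time point. Replicate arrays of a group correlated with a median r of 0.81 to 0.949 by series. The lowest r, 0.457, was at 3 generations of antimycin A in air, the control of anaerobiosis with antimycin A. The re-aeration in glucose arrays at 6.6 and 7.6 generations numbered 3 had r = 0.990, above the next closest pair at 0.971, and leaving out either one kept all 35 calls of the 8 genes in the comparisons that used them. SCS7 lacked a value on 20 arrays, all in the 2 series with antimycin A and 2 of them controls at 0 generations, against at most 2 for any other of the 8 genes.

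A change was called when the limma test of a time point against its control had an adjusted p (Holm's step-down Bonferroni method over all genes tested at that time point) at or below 0.01. The words higher, lower, rose and fell are kept for called changes. OLE1 and SUR2 were called most often, at 40 and 49 of 70 time points, followed by ACC1 at 35, FAS2 at 23, SCS7 at 22 of 58, MGA2 at 11, SPT23 at 9 and FAS1 at 2. The map of all changes shows OLE1 and ACC1 lower in late anaerobiosis of wild type without antimycin A and higher in re-aeration. SUR2 did the reverse.

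**Figure D1:**
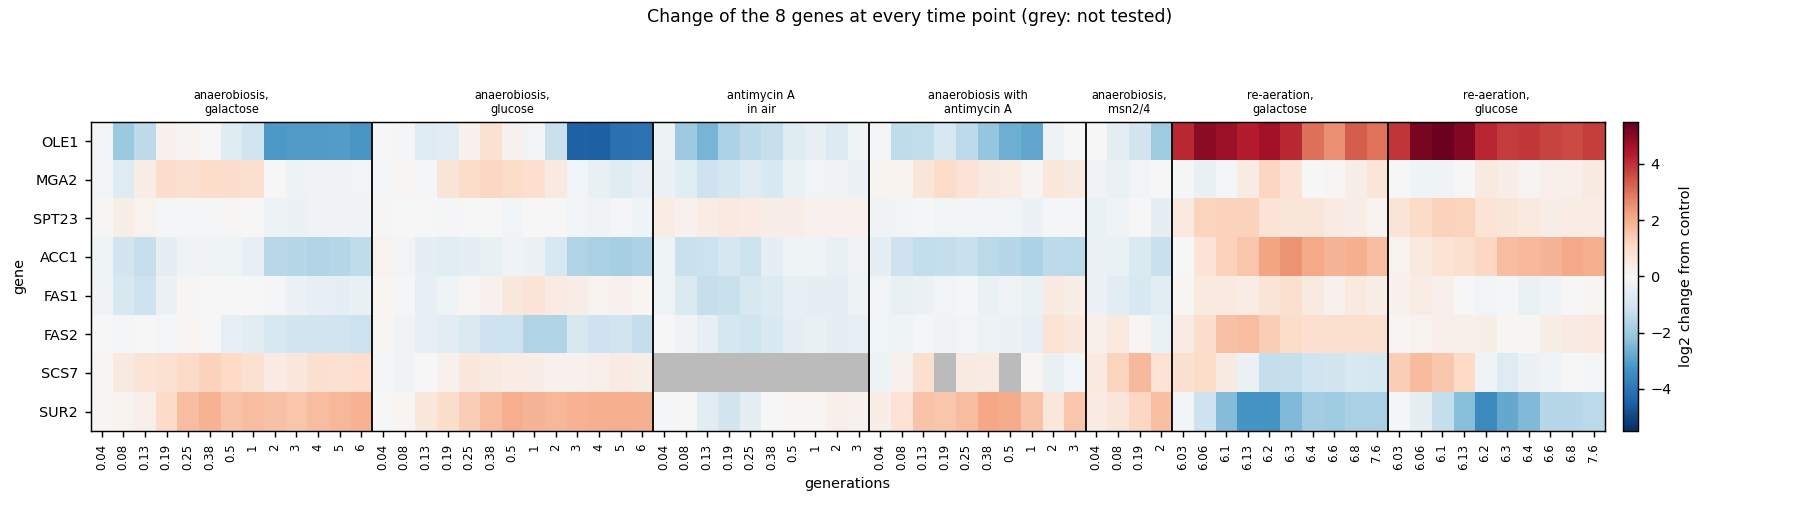
Change of each of the 8 genes (rows) from the control of its series at every time point (columns, in generations), coloured by log2 change, with time points that could not be tested in grey. OLE1 spans the widest range, from -4.48 at 4 generations of anaerobiosis in glucose to 5.38 at 6.1 generations of re-aeration in glucose, while SPT23 and FAS1 stay pale outside a few time points.

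Of the 8 genes, 6 passed the test at some time point of anaerobiosis in galactose, 3 higher and 4 lower with MGA2 in both, where 43.3% of all genes were called (21.6% higher and 25.8% lower). In anaerobiosis in glucose 5 of 8 were called, 2 higher and 3 lower, beside 27.3% of all genes (13.1% higher and 15.3% lower). In antimycin A in air 3 of the 7 testable genes were called, all lower, beside 23.6% of all genes (11.4% higher and 12.3% lower). For the higher direction the limma count was 0 by Holm, 2 at an unadjusted p under 0.05 and 1 with Benjamini-Hochberg adjustment. Shares of all genes are by Holm throughout, and none was worked out for unadjusted or Benjamini-Hochberg counts. In anaerobiosis with antimycin A 4 of 8 were called, 2 higher and 2 lower, beside 17.8% (10.4% higher and 8.24% lower). In the msn2/4 mutant 2 of 8 were called, both higher, beside 6.58% (3.28% higher and 3.32% lower), and the limma count of lower genes was 0 by Holm, 4 at an unadjusted p under 0.05 and 3 with Benjamini-Hochberg adjustment. Re-aeration in galactose had the highest count, 7 of 8 with 6 higher and 2 lower and SCS7 in both, beside 27.4% (16.1% higher and 12.5% lower), and in re-aeration in glucose 5 of 8 were called, 4 higher and 1 lower, beside 21.1% (12.9% higher and 9.06% lower). The median change over the 8 genes was small where some rose and others fell, -0.30 at 6 generations of anaerobiosis in galactose against 0.01 over all genes, and it was 0.95 at 6.2 generations of re-aeration in galactose against -0.04. Over the 7 testable genes it reached -1.14 at 0.13 generations of antimycin A in air against 0.02.

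OLE1 fell in anaerobiosis in galactose in 2 separate steps. The control arrays read 0.63, 1.01 and 1.08. At 0.08 generations the arrays read -1.26, -1.14 and -1.03, a change of -2.05 ± 0.14 (SE of the fit, as for every change below) and a 4.15-fold fall (limma, adjusted p = 3.58e-12). At 0.13 generations the change was -1.46, again called. The fall was then gone. At 0.19 generations the arrays read 0.91, 1.11 and 1.42, and from 0.19 to 0.38 generations the changes of 0.02 to 0.24 overlapped the control arrays. OLE1 fell again by 1.08 at 1 generation, and from 2 to 6 generations it stayed between -3.08 and -3.20. At 6 generations the arrays read -2.40, -2.32 and -2.16, a 9.2-fold fall (limma, adjusted p = 7.02e-18) that ranked 10th from the lowest of 5609 genes.

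In glucose the control arrays of OLE1 read 0.09, 0.36 and 0.43. No change up to 1 generation was called. The arrays at 0.13 generations, -0.57, -0.41 and -0.28, lay below the control arrays (-0.71, limma, adjusted p = 1.0), and both arrays at 0.38 generations, 1.11 and 1.16, lay above them (0.85, limma, adjusted p = 1.0). At 2 generations the change was -1.24 (limma, adjusted p = 0.0209). Between 2 and 3 generations the level dropped to -4.32, -4.12 and -4.06, a change of -4.46, and at 4 generations the arrays at -4.35, -4.16 and -4.04 gave -4.48 ± 0.22, a 22.3-fold fall (limma, adjusted p = 1.01e-15). The 4 time points from 3 to 6 generations were all called and lay between -4.48 and -4.05.

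OLE1 also fell in antimycin A in air, where oxygen was present. The only control was the 0 generation arrays, and the part of time in culture was not tested. The control arrays read 0.98, 1.04 and 1.31. OLE1 fell by 1.98 at 0.08 generations, and it fell by 2.57 ± 0.17 at 0.13 generations, where the arrays read -1.55, -1.50 and -1.33 (5.95-fold, limma, adjusted p = 1.81e-11). It was lower by 1.74, 1.43 and 1.25 at 0.19, 0.25 and 0.38 generations, and no later change was called. At 3 generations the arrays read 0.52, 0.76 and 1.29 and overlapped the control (-0.25).

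The same 3 arrays were the control for anaerobiosis with antimycin A. At 0.08, 0.13, 0.19 and 0.25 generations OLE1 changed by -1.38, -1.34, -0.88 and -1.45, and every array lay below the control arrays, although none of these changes was called (limma, adjusted p = 0.0756 for the last). OLE1 fell by 2.13 at 0.38 generations, by 2.67 at 0.5 generations and by 2.87 ± 0.27 at 1 generation, where the arrays read -2.29, -2.21 and -1.53 (7.3-fold, limma, adjusted p = 3.01e-07). At 2 generations the arrays read 0.12, 0.52 and 1.05, and at 3 generations 0.82, 0.83 and 0.86. Both sets overlapped the control arrays, with changes of -0.29 and -0.02, though 2 of the 3 arrays at 2 generations lay below the lowest control array. At those 2 time points 3 of the 4 oxygen marker genes were still called in their anaerobic direction, with changes of 5.26 and 5.46 for DAN1, 5.08 and 5.00 for HEM13 and -4.52 and -4.23 for CYC1, while ANB1 changed by 1.21 and 1.45, not called. With the 0 generation arrays of antimycin A in air as the control in place of the 3 generation arrays, the OLE1 changes at 2 and 3 generations were not called either. In the msn2/4 mutant the control arrays of OLE1 read 1.28, 1.39 and 1.57, those at 2 generations read -1.02, -0.79 and 0.20, and the change of -1.95 was not called (limma, adjusted p = 0.338) although the groups did not overlap.

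On return to air OLE1 rose at the first time point and ranked between 2nd and 20th of all genes by its change at every time point of both series. In galactose the control arrays read -4.50, -3.60 and -3.50. At 6.03 generations the arrays read 0.18, 0.22 and 0.49, a rise of 4.16 ± 0.21 (17.9-fold, limma, adjusted p = 1.34e-13) that was the 2nd highest of all genes at that time point. The rise reached 4.97, or 31.3-fold, at 6.06 generations, where the arrays read 0.82, 1.11 and 1.36. It was smallest at 6.6 generations, 2.53, and was called at all 10 time points. In glucose the control arrays read -3.55, -3.30 and -2.74. The rise was 5.23 at 6.06 generations, the 3rd highest of all genes, and 5.38 ± 0.23 at 6.1 generations, where the arrays read 2.12, 2.14 and 2.30 (41.7-fold, limma, adjusted p = 4.66e-16). The smallest, 3.64, was at 6.8 generations, and all 10 time points were called. With arrays quantile normalized, the rise at 6.06 generations in galactose was 3.77 in place of 4.97. Leaving out the arrays of 1 replicate number kept all 10 calls of OLE1 in each re-aeration series, 7 or 8 of 8 in anaerobiosis in galactose, 4 of 4 in glucose, 4 or 5 of 5 in antimycin A in air and 2 or 3 of 3 in anaerobiosis with antimycin A.

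**Figure D2:**
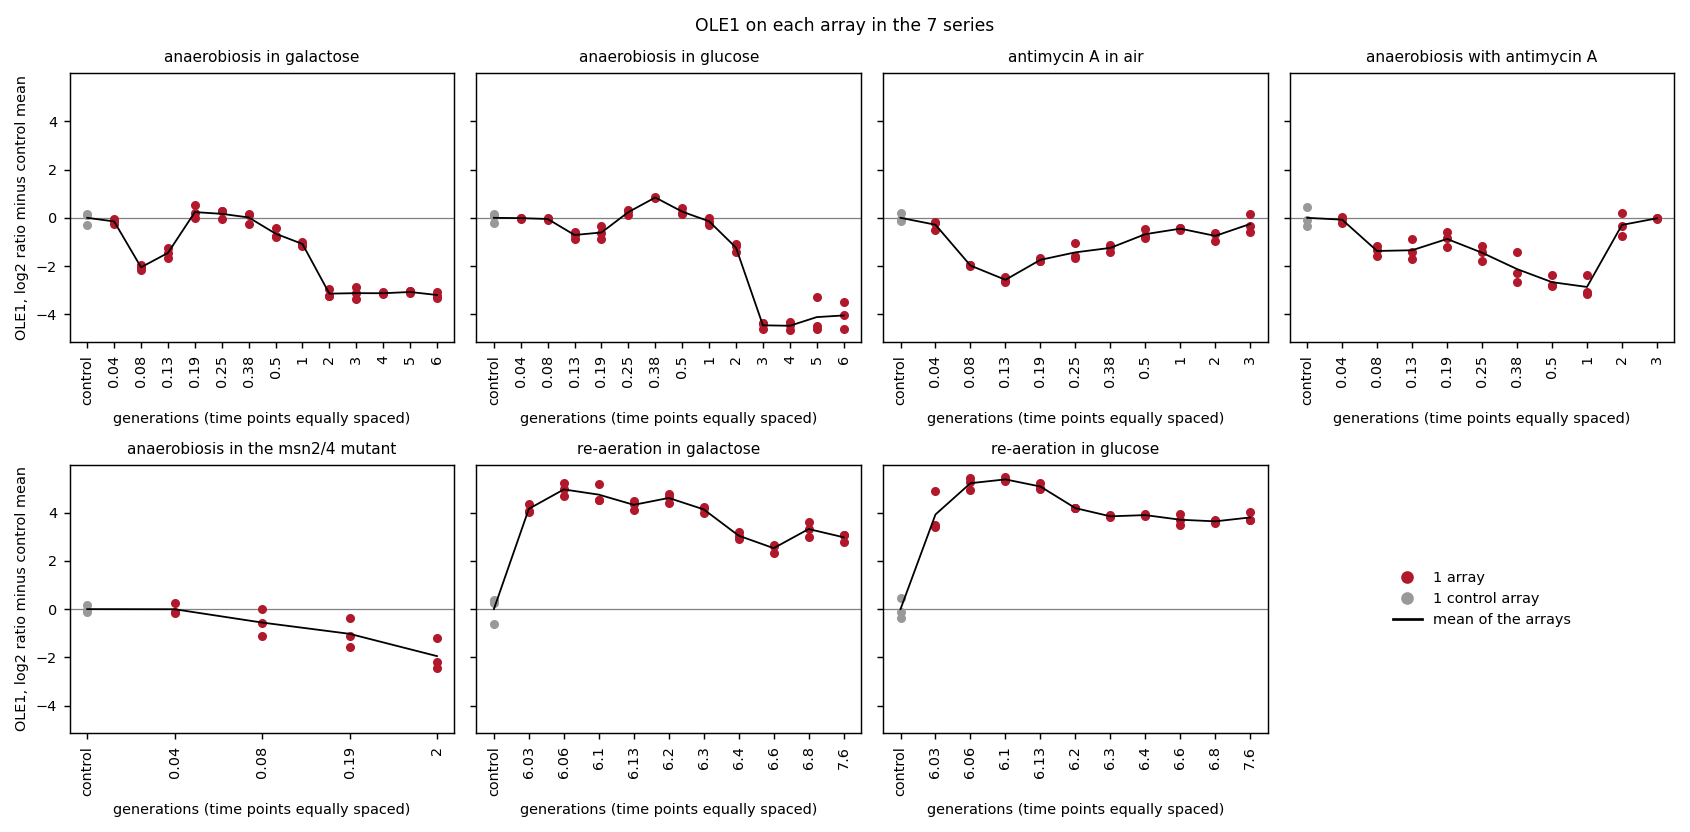
OLE1 log2 ratio on each array (points), less the mean of the control arrays of its series, against generations, equally spaced, one panel per series. The control arrays of both re-aeration series lie at or below 0.45 and every later array of those series at or above 2.33. In anaerobiosis with antimycin A the arrays at 2 and 3 generations overlap the control arrays after the fall at 1 generation. Of the 3 arrays at 2 generations, 2 lie below the lowest control array. Each panel is set to its own control mean, since the reference pools differ.

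MGA2 rose for a short time in anaerobiosis, after OLE1 had first fallen in galactose. Its control arrays in galactose read -0.26, -0.16 and -0.03. At 0.08 generations they read -1.10, -0.76 and -0.75, a fall of 0.72 ± 0.12 (limma, adjusted p = 0.00218). From 0.19 to 1 generation MGA2 was higher at 5 time points by 0.87 to 1.01, and the arrays of 0.77, 0.82 and 1.01 at 0.38 generations gave the largest rise (limma, adjusted p = 2.2e-06). At 2 generations the arrays read -0.33, -0.07 and -0.04 and overlapped the control (0.00). In glucose the control arrays read -0.51, -0.49 and -0.36. MGA2 rose by 1.02 at 0.25, 1.14 at 0.38 and 1.00 at 0.5 generations, and at 5 generations, with arrays at -1.22, -1.17 and -1.01, the change of -0.68 was not called. In anaerobiosis with antimycin A it was called once, at 0.19 generations, where arrays of 1.13, 1.16 and 1.18 gave a rise of 1.00 ± 0.14 (limma, adjusted p = 0.000726). That call was lost with the 0 generation control (0.66, adjusted p = 0.328).

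MGA2 was not called in antimycin A in air, where the control arrays read 0.26, 0.52 and 0.71 and those at 0.13 generations -1.0, -0.77 and -0.16 (-1.14 ± 0.21, limma, adjusted p = 0.0406), nor in the msn2/4 mutant, where no change was larger than the -0.39 at 0.08 generations. In re-aeration MGA2 rose once, in galactose at 6.2 generations, from control arrays of -0.33, -0.32 and -0.21 to 0.64, 0.91 and 1.08 (1.16 ± 0.17, limma, adjusted p = 0.000943). In glucose the change at the same time point was 0.49 (limma, adjusted p = 0.361). The MGA2 calls were less firm than those of OLE1. Of the 6 calls in anaerobiosis in galactose, 0 remained without the arrays of replicate 1, 2 without replicate 2 and 3 without replicate 3, and of the 3 in glucose 0 remained without replicate 1 or 3. The 1 call in anaerobiosis with antimycin A was lost without replicate 1, 2 or 3, and the 1 in re-aeration in galactose without replicate 1 or 2. The fall of MGA2 at 0.08 generations was also lost under quantile normalization, at -0.44.

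SPT23, the other activator gene, was called on return to air and in no other series by Holm's method. Benjamini-Hochberg adjustment also called it at 0.08 generations of anaerobiosis in galactose (0.33) and at 0.13 to 0.25 generations of antimycin A in air. In anaerobiosis, with or without antimycin A, its changes lay between -0.55 and 0.33, and in antimycin A in air all 10 lay above 0, between 0.22 and 0.54, none called by Holm. In re-aeration in galactose the control arrays read -0.77, -0.73 and -0.67 and the arrays at 6.13 generations 0.51, 0.56 and 0.61, a rise of 1.28 ± 0.10 (2.43-fold, limma, adjusted p = 2.45e-09). SPT23 was higher at the 6 time points from 6.06 to 6.4 generations. In glucose the control arrays read -0.72, -0.46 and -0.42 and SPT23 was higher at 3 time points, by 1.07 at 6.06, 1.27 at 6.1 and 1.21 at 6.13 generations. The arrays at 6.1 generations, 0.67, 0.70 and 0.85, lay clear of the control. Leaving out any replicate number in galactose left 3 of the 6 calls, and leaving out replicate 3 in glucose left 0 of the 3.

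**Figure D3:**
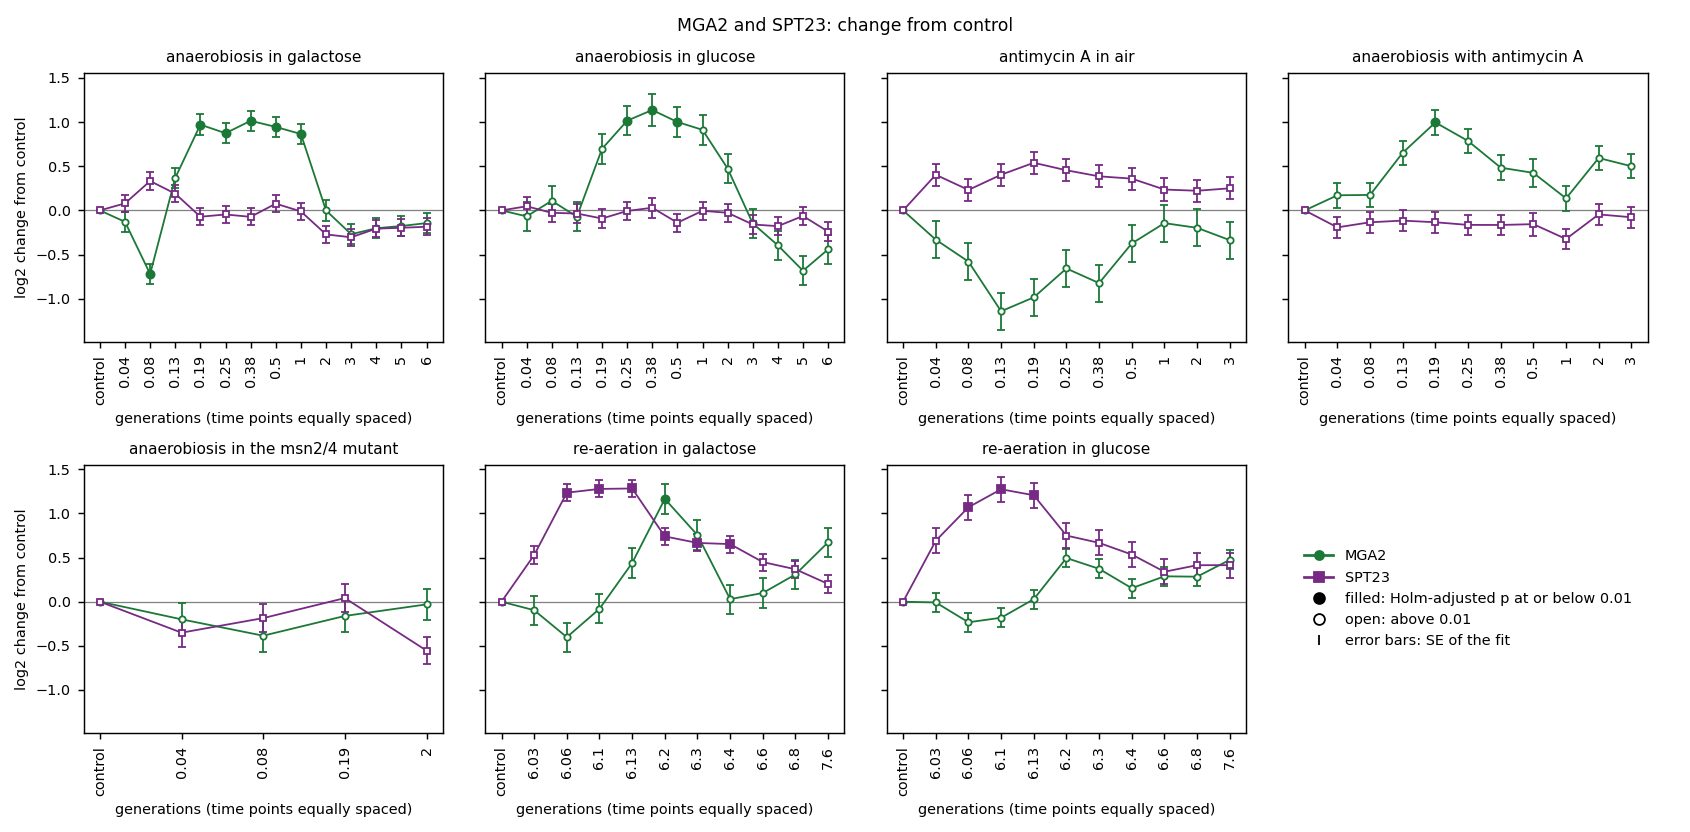
Log2 change of MGA2 and SPT23 from control (points, with the SE of the fit as bars) against generations, equally spaced, one panel per series, with called changes filled. MGA2 is filled from 0.19 to 1 generation of anaerobiosis in galactose and SPT23 from 6.06 to 6.4 generations of re-aeration in galactose.

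ACC1, which makes the malonyl-CoA for chain growth, followed the 2 steps of OLE1 in galactose at a smaller size. The control arrays read 0.97, 1.07 and 1.08. ACC1 fell by 1.06 at 0.08 generations and by 1.25 ± 0.17 at 0.13 generations, where the arrays read -0.47, -0.11 and -0.03 (limma, adjusted p = 0.00014). From 0.25 to 0.5 generations the arrays overlapped the control. From 2 to 6 generations ACC1 was lower by 1.41 to 1.65, and the 3 arrays at 4 generations read -0.81, -0.62 and -0.38. These 7 calls came down to 6, 0 and 5 without replicates 1, 2 and 3. In glucose ACC1 fell from control arrays of 0.22, 0.40 and 0.75 at the 5 time points from 2 to 6 generations, first by 0.87 and at most by 1.84 ± 0.11 at 5 generations, where the arrays read -1.62, -1.28 and -1.24 (3.57-fold, limma, adjusted p = 7.05e-13).

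In antimycin A in air the ACC1 control arrays read 1.30, 1.56 and 1.88 and those at 0.08 generations -0.53, 0.66 and 0.90. The largest change, -1.23 ± 0.27, was not called (limma, adjusted p = 0.434), though with quantile normalization it became -2.18 and was called. In anaerobiosis with antimycin A ACC1 was lower at 9 of 10 time points by 1.14 to 1.75, and it was still lower at 2 and 3 generations, by 1.42 and 1.50, where OLE1 overlapped its control arrays. The arrays at 3 generations read -0.41, -0.14 and 0.17 against control arrays of 1.10, 1.50 and 1.51. In the msn2/4 mutant the change of -1.22 at 2 generations was not called (limma, adjusted p = 0.117). On return to air the rise of ACC1 was first called later than that of OLE1. In galactose the changes at 6.03 and 6.06 generations, 0.01 and 0.73, were not called. The rise was then called at 8 time points and reached 2.45 ± 0.16 at 6.3 generations, from control arrays of -1.68, -1.51 and -1.36 to 0.91, 0.93 and 0.97 (5.47-fold, limma, adjusted p = 1.1e-10). In glucose it was called at the 6 time points from 6.2 generations on and reached 2.09 at 6.8 generations, from -0.96, -0.90 and -0.81 to 1.11, 1.20 and 1.28.

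Of the 2 synthase subunit genes, FAS1 was called by Holm in antimycin A in air and FAS2 in both anaerobiosis series without the inhibitor in wild type and in re-aeration in galactose. With Benjamini-Hochberg adjustment both were called in anaerobiosis in galactose and in glucose, in antimycin A in air and in re-aeration in galactose. The difference between the 2 genes was not tested. The FAS1 control arrays in antimycin A in air read 0.60, 0.69 and 0.70 and those at 0.13 generations -0.59, -0.58 and -0.58, a fall of 1.25 ± 0.20 (limma, adjusted p = 0.00526), and FAS1 was lower by 1.21 at 0.19 generations (limma, adjusted p = 0.00829). By 3 generations the arrays of -0.08, 0.36 and 0.86 overlapped the control. These 2 FAS1 calls stood near the threshold. Both were lost under quantile normalization, and without replicates 1, 2, 3 or 4, and 1 of the 2 without replicate 5. In anaerobiosis in galactose the 2 arrays with a value at 0.13 generations read -0.79 and -0.42 against control arrays of 0.35, 0.58 and 0.63 (-1.13, limma, adjusted p = 0.0399), and the values from 0.25 to 4 generations overlapped the control. In glucose the arrays of 0.54, 0.67 and 0.72 at 1 generation lay above control arrays of -0.20, -0.04 and 0.01 (0.72, limma, adjusted p = 0.0186). The largest FAS1 change in re-aeration, 0.87 at 6.3 generations in galactose, was not called either (limma, adjusted p = 0.0442).

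FAS2 was called in 3 of the 7 series. In anaerobiosis in galactose it overlapped its control arrays of 0.53, 0.60 and 0.84 up to 0.38 generations, then fell by 0.89 at 2 generations and by 1.19 ± 0.11 at 6 generations, where the arrays read -0.68, -0.62 and -0.30 (limma, adjusted p = 9.59e-09). In glucose FAS2 fell earlier, as counted in generations. It was lower at the 9 time points from 0.25 to 6 generations, most at 1 generation, where control arrays of 0.89, 0.94 and 1.06 and arrays of -0.80, -0.78 and -0.52 gave -1.66 ± 0.12 (3.17-fold, limma, adjusted p = 3.18e-11), and it was lower by 0.89 at 3 generations. Without replicate 3 of that series, 3 of the 8 calls still testable remained. In antimycin A in air the FAS2 change at 0.25 generations, -1.08, was not called (limma, adjusted p = 0.104), and in anaerobiosis with antimycin A no change was called, with 0.78 at 2 generations.

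In re-aeration in galactose FAS2 rose from control arrays of -1.12, -0.76 and -0.61 at 9 of 10 time points. The rise reached 1.68 ± 0.12 at 6.13 generations, with arrays at 0.81, 0.85 and 0.89 (3.21-fold, limma, adjusted p = 7.76e-10), and 3 or 4 of the 9 calls remained without one replicate number. In re-aeration in glucose none of the 10 time points was called. The FAS2 control arrays there read 0.85, 0.86 and 0.91 and the largest change, at 7.6 generations, was 0.54 with arrays at 0.86, 1.63 and 1.74.

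**Figure D4:**
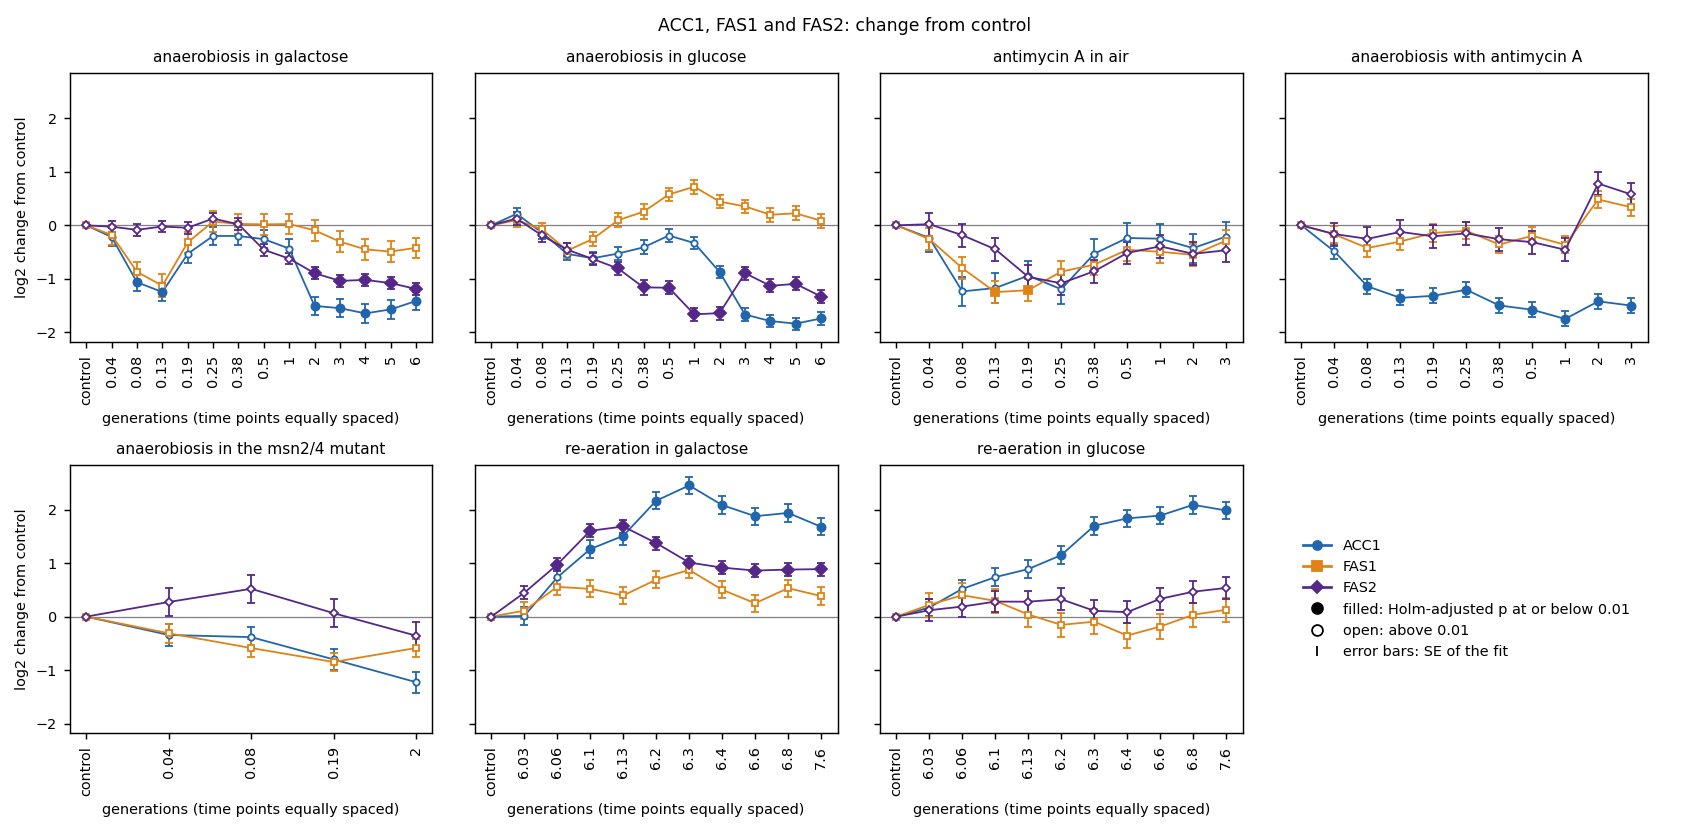
Log2 change of ACC1, FAS1 and FAS2 from control (points, with the SE of the fit as bars) against generations, equally spaced, one panel per series, with called changes filled. ACC1 lies below 0 from 2 generations in all anaerobiosis series and reaches 2.45 and 2.09 in re-aeration, FAS2 is filled in re-aeration in galactose and not in glucose, and FAS1 is filled at 2 time points of antimycin A in air.

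The changes of SUR2 ran against those of OLE1 in re-aeration and in late anaerobiosis of wild type without antimycin A. In antimycin A in air both genes were lower at 0.19 generations. SUR2 rose in every anaerobiosis series and fell in both re-aeration series. In galactose its control arrays read -1.32, -1.09 and -1.07. The change at 0.13 generations, 0.26, was not called. SUR2 then rose by 1.03 at 0.19 generations and by 1.90 ± 0.09 at 0.38 generations, where the arrays read 0.66, 0.67 and 0.88 (3.73-fold, limma, adjusted p = 1.64e-17), and it stayed at 1.51 to 1.91 up to 6 generations. In glucose it was higher at 11 time points, from 0.57 at 0.13 generations to 2.00 at 5 generations, where control arrays of -1.32, -1.23 and -1.20 and arrays of 0.65, 0.71 and 0.89 did not overlap.

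In antimycin A in air SUR2 went the other way. The control arrays read -1.54, -1.52 and -1.07 and those at 0.19 generations -2.48, -2.32 and -2.30, a fall of 0.99 ± 0.13 (limma, adjusted p = 0.000241). From 0.38 generations on the arrays overlapped the control. This single SUR2 call was lost without replicate 1, 2 or 3 and under quantile normalization, at -0.51. In anaerobiosis with antimycin A SUR2 rose at 8 time points, from 0.80 at 0.08 generations to 2.14 ± 0.13 at 0.38 generations, where control arrays of -1.27, -1.13 and -1.01 became 0.97, 0.98 and 1.06 (4.4-fold, limma, adjusted p = 8.65e-12). At 2 generations, one of the time points where OLE1 overlapped its control arrays, the SUR2 arrays of -0.82, -0.41 and -0.25 gave 0.64 (limma, adjusted p = 0.168), and at 3 generations SUR2 was again higher, by 1.51. In the msn2/4 mutant SUR2 rose by 1.15 at 0.19 and by 1.65 at 2 generations, from control arrays of -1.64, -1.47 and -1.44 to 0.13, 0.14 and 0.14. Neither call remained when any one replicate was left out.

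On return to air SUR2 overlapped its control arrays at 6.03 generations in both media and then fell steeply. In galactose control arrays of 1.42, 1.56 and 1.71 became -1.75, -1.75 and -1.73 at 6.2 generations, a fall of 3.31 ± 0.12 (9.9-fold, limma, adjusted p = 6.39e-17). In glucose control arrays of 1.85, 1.93 and 1.97 became -1.64, -1.55 and -1.52 at 6.2 generations, a fall of 3.49 ± 0.09 (11.2-fold, limma, adjusted p = 1.56e-22). SUR2 then came part of the way back, to -1.78 in galactose and -1.50 in glucose at 7.6 generations, still called. It was lower at 9 of 10 time points in galactose and at 8 of 10 in glucose.

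SCS7 was higher in anaerobiosis in galactose at 10 of 13 time points, by 0.59 to 1.28 ± 0.08. At 0.38 generations control arrays of -0.75, -0.64 and -0.45 became 0.62, 0.67 and 0.71 (2.43-fold, limma, adjusted p = 1.3e-12). In glucose it was called at none of 13, and the largest change, at 0.25 generations, with control arrays of -0.23, -0.18 and -0.13 and arrays of 0.23, 0.36 and 0.65, was 0.59 (limma, adjusted p = 0.277). In the msn2/4 mutant SCS7 rose by 1.78 ± 0.16 at 0.19 generations, from control arrays of -0.76, -0.69 and -0.44 to 1.07, 1.16 and 1.22 (limma, adjusted p = 0.000143), a call lost whichever replicate was left out. SCS7 could not be tested in antimycin A in air, where 1 control array had a value, -0.77. The 3 arrays at 0.38 generations there read 0.13, 0.32 and 0.38. In anaerobiosis with antimycin A its control had 2 values, 0.05 and 0.60, and no change was called at the 8 testable time points.

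In re-aeration SCS7 moved in both directions in galactose. It was first higher, by 0.87 at 6.03 and 0.99 at 6.06 generations, with control arrays at 0.06, 0.16 and 0.33 and arrays at 0.80, 1.13 and 1.60 for 6.06 generations. It was then lower, by 1.32 ± 0.14 at 6.2 generations, where the arrays read -1.25, -1.13 and -1.03 (limma, adjusted p = 3.18e-06), and by 0.96 at 7.6 generations. Of these 7 calls 6, 0 and 3 remained without replicates 1, 2 and 3. In glucose SCS7 was higher at the first 4 time points, most at 6.06 generations, where control arrays of 0.02, 0.04 and 0.31 became 1.47, 1.69 and 2.40 (1.73 ± 0.17, limma, adjusted p = 2.61e-07). No later fall was called, and the lowest change was -0.73 at 6.3 generations (limma, adjusted p = 0.772). Without replicates 2 and 3, 1 and 2 of the 4 calls remained.

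**Figure D5:**
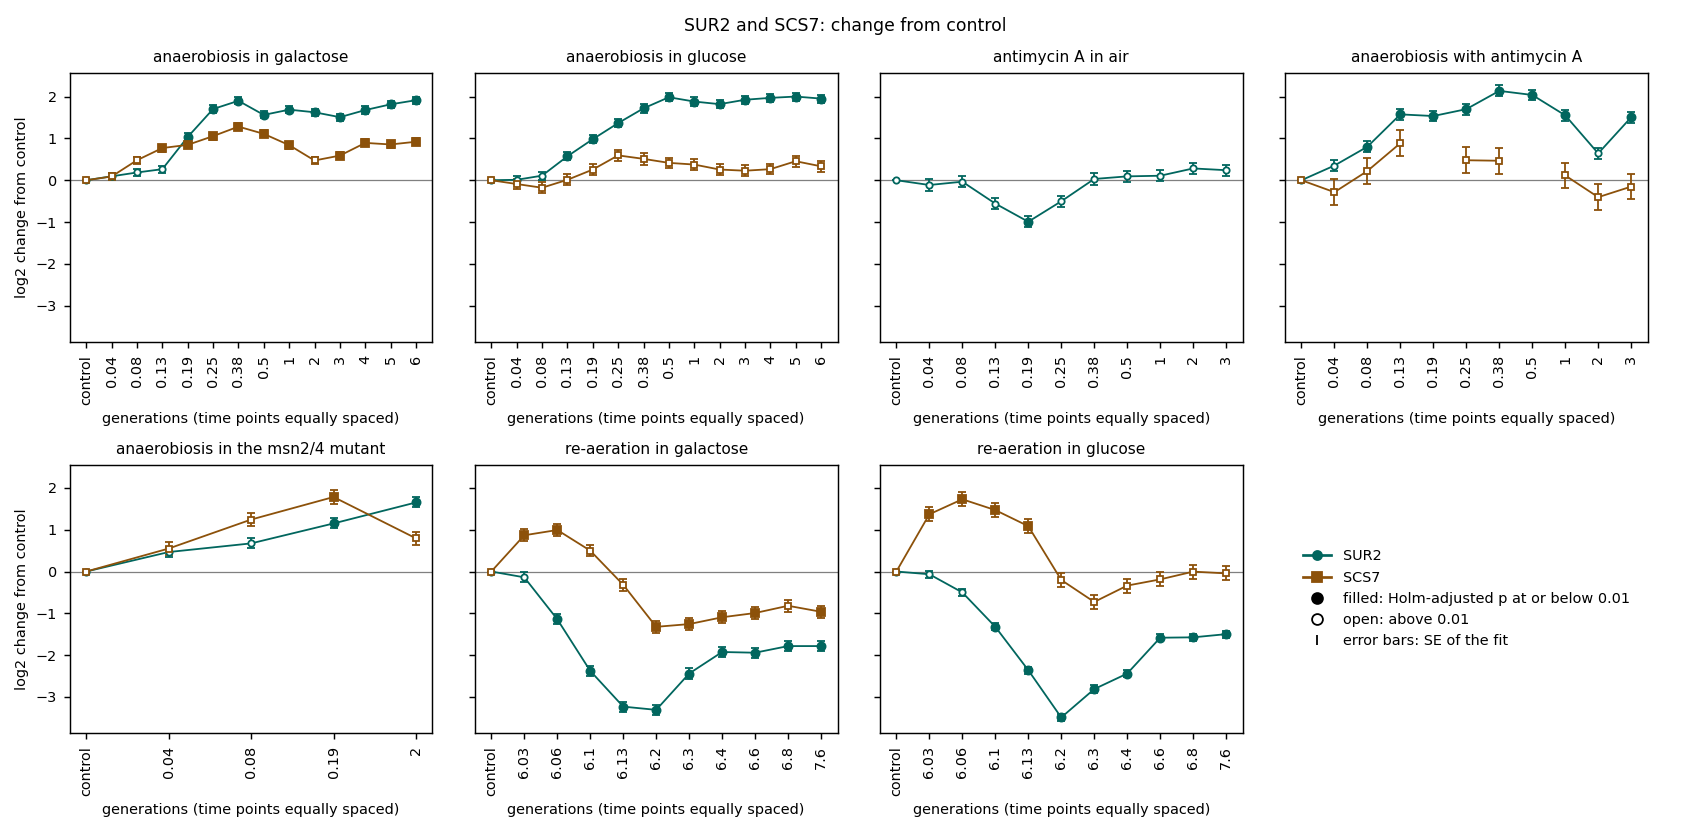
Log2 change of SUR2 and SCS7 from control (points, with the SE of the fit as bars) against generations, equally spaced, one panel per series, with called changes filled. SUR2 reaches 1.91 and 2.00 in anaerobiosis and -3.31 and -3.49 at 6.2 generations of re-aeration in galactose and glucose, and SCS7, not tested in antimycin A in air, rises early in both re-aeration series and then falls in galactose.

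Differences between series were tested as differences of the changes at shared time points. These were matched by generations and not by clock time. The paper reports that growth on galactose slowed without oxygen, while on glucose its rate did not change. Equal generations can therefore be unequal times. The first 4 comparisons all use the 0 generation arrays of anaerobiosis in galactose, so they are not independent of each other. Between glucose and galactose in anaerobiosis 2 of the 8 genes differed at some shared time point, beside 33.3% of all genes. OLE1 changed by -0.05 in glucose and by -2.05 in galactose at 0.08 generations (difference 2.00 ± 0.27, limma, adjusted p = 1.9e-06), and by -1.24 and -3.14 at 2 generations (1.91). Later the OLE1 difference had the opposite sign. It was -1.33 at 3 generations and -1.35 at 4 generations, and both missed the threshold (limma, adjusted p = 0.03 and 0.024). At 4 generations the changes were -4.48 in glucose and -3.13 in galactose. The OLE1 difference at 0.08 generations was not called under quantile normalization (1.51, adjusted p = 0.018). FAS2 changed by -1.16 in glucose and 0.02 in galactose at 0.38 generations (-1.18 ± 0.17, limma, adjusted p = 2.11e-05), with called differences also at 0.25 and 1 generation. All called FAS2 differences were lost without replicate 1 or 3. For SUR2 no difference between the media was called in anaerobiosis.

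Anaerobiosis with and without antimycin A differed for 4 of the 8 genes, beside 29.7% of all genes. The 2 series were separate experiments with different controls, so an effect of the inhibitor cannot be told apart from these. OLE1 was more strongly lowered with the inhibitor than without it at 0.38, 0.5 and 1 generation, by -2.14, -2.01 and -1.78, and less lowered at 2 and 3 generations, by 2.85 and 3.10 ± 0.31 (limma, adjusted p = 1.73e-10 at 3 generations), and 2 to 5 of these 5 calls remained without one replicate number. ACC1 was more strongly lowered at 0.38, 0.5 and 1 generation, by -1.30, -1.32 and -1.31, and all 3 calls were lost without replicate 1, 2 or 4, while 2 remained without replicate 3. FAS2 differed at 2 and 3 generations, by 1.67 and 1.62, since it was lower without the inhibitor and not with it, and both calls were lost without replicate 3. SUR2 was further up with the inhibitor at 0.13 generations (1.31) and less up at 2 generations (-0.98).

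Antimycin A in air and anaerobiosis in galactose, both of which stop respiration, differed for 3 of 7 genes, beside 15.7% of all genes. OLE1 fell in both at 0.08 and 0.13 generations. It changed by -2.57 in antimycin A in air and -1.46 in anaerobiosis at 0.13 generations, a difference of -1.12 ± 0.22 that missed the threshold (limma, adjusted p = 0.0182). It was then lower in antimycin A in air at 0.19, 0.25 and 0.38 generations, by -1.98, -1.60 and -1.26, and less lowered at 2 and 3 generations, by 2.40 and 2.87 ± 0.22 (limma, adjusted p = 3.74e-15 at 3 generations). Of the 5 OLE1 differences 3 to 5 remained without one replicate number, of those of MGA2 2 to 5 of 5 and of those of SUR2 7 or 8 of 8. MGA2 differed at the 5 time points from 0.13 to 0.5 generations, most at 0.19 generations, where it changed by -0.98 in antimycin A in air and 0.97 in anaerobiosis (-1.96 ± 0.24, limma, adjusted p = 1.72e-07). SUR2 differed at the 8 time points from 0.13 to 3 generations, most at 0.25 generations, with -0.50 and 1.70 (-2.21 ± 0.15, limma, adjusted p = 7.16e-17).

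Between the msn2/4 mutant and wild type 2 of 8 genes differed, beside 8.87% of all genes, both at 0.19 generations. MGA2 changed by -0.16 in the mutant and 0.97 in wild type (-1.13 ± 0.19, limma, adjusted p = 0.003). SCS7 changed by 1.78 and 0.85 (0.94 ± 0.15, limma, adjusted p = 0.0014). Neither call remained when any one replicate number was left out, and that of SCS7 was lost under quantile normalization, at 0.44. Between glucose and galactose in re-aeration 3 of 8 differed, beside 9.23% of all genes. SUR2 fell less in glucose at 6.1 generations (1.05 ± 0.15) and at 6.13 generations (0.87). At 6.13 generations FAS2 changed by 0.28 in glucose and 1.68 in galactose (-1.40 ± 0.25), and SCS7 by 1.09 and -0.32 (1.40 ± 0.22) (limma, adjusted p = 0.00321 for FAS2 and 0.000484 for SCS7). No gene remained called without replicate 2, SUR2 alone remained without replicate 3, and FAS2 and SCS7 without replicate 1. For OLE1 no difference between the media was called on return to air.

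Genes around these 8 were read from lists of neighbouring pathways. A gene is counted as higher or lower in a series if it was called so at any of its time points, and where no gene of a list was called in a direction, the number at an unadjusted p under 0.05 (limma) is given. The shares of all genes called in each series are those given above, by Holm, and the unadjusted counts have no such share.

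Of 12 genes that activate and elongate fatty acids, 1 was higher and 5 lower in anaerobiosis in galactose, with 1 in both directions, and 2 were higher and 2 lower in glucose. With antimycin A in air 2 were higher and 3 lower, in anaerobiosis with antimycin A 1 was higher and 1 lower, and in the msn2/4 mutant 0 were higher (3 unadjusted) and 2 lower. In re-aeration 2 were higher and 2 lower in galactose, and 2 higher and 1 lower in glucose. FAA1, the main acyl-CoA synthetase for fatty acid taken from the medium, was lower in the 3 wild type anaerobiosis series, with the largest fall at 0.5 generations in glucose (-3.08), and higher in antimycin A in air and in both re-aeration series, at most by 3.11 ± 0.16 at 6.1 generations in glucose. ELO3 and ELO2, elongases of very long chains, changed by -2.33 and -1.88 at 0.08 generations in the msn2/4 mutant, both called, and FAA2, the peroxisomal acyl-CoA synthetase, rose by 1.74 at 0.25 generations of antimycin A in air. The median change of the 12 genes was 0.11 at 2 generations in galactose against 0.00 over all genes, and -0.01 at 6.2 generations of re-aeration in galactose against -0.04.

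The 5 oxygen-using sterol enzymes were mostly higher late in anaerobiosis, the direction of SUR2. In galactose all 5 were lower at some early time point, and 4 of them were higher later. In glucose and in anaerobiosis with antimycin A 4 were higher and 1 lower. Their medians at 2 generations were 1.63 in galactose, 1.35 in glucose and 1.73 with antimycin A, against 0.00, -0.01 and -0.06 over all genes. In the msn2/4 mutant 1 was higher and 0 lower (3 unadjusted), with a median of 1.24. Under antimycin A in air 0 were higher (2 unadjusted) and 3 lower. In re-aeration in galactose 4 were higher and 4 lower, 3 of them in both directions, and in glucose 5 and 4, with 4 in both. The median at 6.2 generations was -2.07 in galactose and 0.20 in glucose, against -0.04 and -0.08. ERG5, the sterol desaturase of the P450 family, rose by 4.63 at 6.06 generations in glucose. ERG3, another sterol desaturase, changed by -4.56 at 6.3 generations in glucose, ERG1, squalene epoxidase, by -2.83 and ERG11, lanosterol demethylase, by -2.75, all called.

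Of the 3 electron donor genes, 1 was higher and 1 lower in each of the wild type anaerobiosis and re-aeration series, 0 were higher (2 unadjusted) and 2 lower in antimycin A in air, and 0 were higher (1 unadjusted) and 1 lower in the msn2/4 mutant. CYB5, the cytochrome b5 that passes electrons to sterol and sphingolipid enzymes, changed by -2.99 at 0.08 generations in galactose, and NCP1, the reductase that serves the P450 enzymes, by -1.47 at 0.19 generations of antimycin A in air, both called. The median of the 3 genes was 0.42 at 2 generations in galactose and 0.56 in glucose.

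Of 16 genes of sphingolipid synthesis and turnover, 5 were higher and 6 lower in anaerobiosis in galactose, with 2 in both directions, and 3 were higher and 3 lower in glucose. Treatment in air with antimycin A gave 2 higher and 1 lower, in anaerobiosis with antimycin A 2 and 3, and in the msn2/4 mutant 1 was higher and 0 lower (6 unadjusted). In re-aeration 4 were higher and 3 lower in galactose, and 5 and 2 in glucose. YPC1, a ceramidase that acts on phytoceramide, rose by 5.09 ± 0.18 at 6.06 generations of re-aeration in glucose, while YDC1, the related dihydroceramidase, changed by -2.81 at 0.13 generations of anaerobiosis in galactose. DPL1, the lyase for phosphorylated long chain bases, rose by 1.68 at 6.1 generations in galactose, and AUR1, the inositol phosphorylceramide synthase, by 1.53 at 2 generations of anaerobiosis with antimycin A. The list's median was 0.08 at 2 generations in galactose against 0.00 over all genes.

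Of 8 genes under inositol and choline control, 5 were higher and 4 lower in anaerobiosis in galactose, with 2 in both directions, and in glucose the same 3 genes were higher at some time points and lower at others. In antimycin A in air 0 were higher (2 unadjusted) and 2 lower, in anaerobiosis with antimycin A 3 were higher and 0 lower (5 unadjusted), and in the msn2/4 mutant 0 were higher (1 unadjusted) and 0 lower (1 unadjusted). In re-aeration 0 were higher (2 unadjusted) and 2 lower in galactose, and 0 were higher (0 unadjusted) and 4 lower in glucose. INO1, inositol phosphate synthase, rose by 4.43 ± 0.43 at 3 generations of anaerobiosis with antimycin A. OPI3, a phospholipid methyltransferase, and ITR1, an inositol transporter, rose by 2.04 and 1.51 at 1 generation in galactose, and INO2, an activator of this group, changed by -1.80 at 0.25 generations of antimycin A in air, all called. The median was -0.03 at 2 generations in galactose and 0.38 with antimycin A, against 0.00 and -0.06 over all genes.

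Of 8 genes of the separate mitochondrial fatty acid synthesis, 3 were higher and 2 lower in anaerobiosis in galactose, and 0 were higher (5 unadjusted) and 2 lower in glucose. For antimycin A in air 1 was higher and 0 lower (5 unadjusted), in anaerobiosis with antimycin A 0 were higher (4 unadjusted) and 0 lower (5 unadjusted), and in the msn2/4 mutant 1 was higher and 0 lower (3 unadjusted). In re-aeration 2 were higher in each medium and 0 lower (2 unadjusted in galactose and 3 in glucose). CEM1, a condensing enzyme, and ACP1, the acyl carrier protein, changed by -1.65 and -1.04 at 4 generations in glucose, and ETR1, an enoyl reductase, rose by 1.40 at 0.25 generations of antimycin A in air, and MCT1, a malonyl transferase, by 1.35 at 0.19 generations in the msn2/4 mutant. The list's median was -0.19 at 2 generations in galactose and 0.22 at 6.2 generations of re-aeration in galactose. Of 5 genes that process the Mga2 and Spt23 precursors, NPL4 rose by 0.68 at 0.08 generations in galactose and UFD1 by 0.84 at 6.2 generations of re-aeration in galactose, and UFD1 was also called higher in re-aeration in glucose. No other call was made on this list, although 1 to 3 genes in a series were higher and 1 to 4 lower at an unadjusted p under 0.05, and its median was 0.14 at 2 generations in galactose.

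The genes whose changes ran most like each of the 8 were found by Pearson's r over the mean changes at 70 time points (58 for SCS7). These points share controls within a series and are given as a description. For OLE1 they were COQ2 (0.94), PRM10 (0.94) and YJL107C (0.93), for SPT23 MRX3 (0.94), TGL4 (0.93) and AIM14 (0.93), and for SUR2 SET5 (0.97), PRS2 (0.96) and SSK22 (0.95). ACC1 ran most like FRE1 (0.90), MDM38 (0.90) and UTR5 (0.90), FAS1 like HNM1 (0.84), MDM36 (0.76) and RIA1 (0.74), and FAS2 like FET3 (0.81), AHC1 (0.80) and YPL077C (0.80). MGA2 had the weaker likeness of IZH2 (0.78), TFB4 (0.70) and EMC10 (0.69), and SCS7 that of the glycolytic genes PGK1 (0.77), TDH1 (0.77) and ENO1 (0.77). Among the 8 genes, OLE1 had r = 0.89 with ACC1, 0.80 with SPT23, 0.74 with FAS2 and 0.26 with its other activator gene MGA2. Every r pools the series, and none was worked out within a series. SPT23 was called by Holm only in re-aeration, where the rises of OLE1 were largest. SUR2 had r = -0.85 with ACC1, -0.82 with SPT23 and -0.80 with OLE1. The paired subunit genes FAS1 and FAS2 had r = 0.33, and the hydroxylase genes SCS7 and SUR2 had r = 0.52.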

How the data were processed

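RNA of each fermentor culture was labelled with Cy3 and hybridised against a Cy5 reference pool on custom oligonucleotide arrays, which the authors scanned, read with GenePix Pro, background-corrected and normalized. The deposited values are 1 log ratio per gene and array and were read as log2. Bases 2, e and 10 were tried on the 4 series read as having a pool of their own time points. For the glucose series the label names a galactose reference, while the description names such a pool. With base 2 the mean ratios came closest to the pooled reference. Base 2 was the smallest tried, and the log2 mean ratios of changing genes still lay above 0, at 0.07 to 0.12. The check thus could not have picked a smaller base. Nothing further was done to the deposited values. limma 3.58.1 (R 4.3.3) fitted 1 mean per time point to all arrays of a series and compared each with its control where both had at least 2 values. p-values were adjusted by Holm over all genes tested, as the study's step-down Bonferroni adjustment, at 0.01. Differences between series were interaction terms in 1 fit. Tables were handled in Python 3.11.15 with pandas 2.3.3. The fits were checked on simulated data. For the antimycin A experiment the methods describe 3 repeats of the time series, each completed by 2 fermentor runs that took alternate time points. p-values rest on the spread between arrays within groups, pooled over all groups of a fit and moderated across genes. That spread may be technical where separate cultures are not stated. The number of arrays limits the precision. Replicate numbers were not taken to pair arrays between time points, whereas the study fitted its ANOVA with repeated measures.

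The 8 genes, all reported, and the other lists were chosen with earlier results of these data known. Of each list up to 4 genes with the largest called change over all series are named, at that value, and for each of the 8 genes the 3 with the highest r. MSN2 was used as a check of the labels, at its level. Alternatives were Benjamini-Hochberg adjustment, centred or quantile normalized arrays, genes complete on all arrays, a trended robust prior, fits to the 2 groups compared, a replicate block, another control for anaerobiosis with antimycin A and leaving out each replicate. Leaving out 1 of the 2 close arrays was added after seeing the data. No sequences were used.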

Additional observations from a re-analysis of the deposited data

Results flagged for a closer look

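Several changes differed between series by the test of the difference itself (limma, log2 scale). Anaerobiosis in glucose less that in galactose differed most for OLE1 at 0.08 generations (2.00) and for FAS2 at 0.38 generations (-1.18). Anaerobiosis with antimycin A less that without it differed most for SUR2 at 0.13 generations (1.31), OLE1 at 3 generations (3.10), ACC1 at 0.5 generations (-1.32) and FAS2 at 2 generations (1.67). Antimycin A in air less anaerobiosis in galactose differed most for MGA2 at 0.19 generations (-1.96), SUR2 at 0.25 generations (-2.21) and OLE1 at 3 generations (2.87). The msn2/4 mutant less wild type differed for MGA2 (-1.13) and SCS7 (0.94), both at 0.19 generations. Re-aeration in glucose less that in galactose differed most for SUR2 at 6.1 generations (1.05), and for FAS2 (-1.40) and SCS7 (1.40) at 6.13 generations. Of these, the overlap of OLE1 with its control arrays at 2 and 3 generations of anaerobiosis with antimycin A stood beside called changes of DAN1, HEM13 and CYC1 in their anaerobic direction, while the fourth marker, ANB1, was not called, and the part of the shared control arrays, with the lowest replicate r, 0.457, was not tested beyond the change of control.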

How the results depend on the processing

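Of 912 changes and differences of the 8 genes, 232 were called, and no called value reversed under any alternative run. All 232 remained with Benjamini-Hochberg adjustment, which added 141. Calls remaining were 225 with arrays centred, 213 with quantile normalization (largest shift 1.72), 231 of 231 with complete genes, 229 with a trended robust prior and 112 with fits to the 2 groups compared, which estimate the spread from fewer arrays. With the 0 generation control, 31 of 33 remained. Replicate numbers were not taken to pair the arrays. The mean r of deviations was higher between arrays of the same number, 0.07 to 0.22, than between other numbers, -0.11 to -0.03, in the 7 series. Single same-number pairs went down to -0.49, which does not decide whether the numbers pair arrays. With the replicate block 229 remained, and of the counts of genes called the block moved none by over 1.5 times, 6 to 7 in anaerobiosis in galactose, 3 to 2 in antimycin A in air, 4 to 5 with against without antimycin A and 7 to 8 in re-aeration in galactose being the changes. FAS1 accounted for 3 of these. The block lost its calls in antimycin A in air (adjusted p = 0.0124 and 0.0185) and called it in anaerobiosis in galactose (-1.13, adjusted p = 0.00715) and in re-aeration in galactose (0.87, adjusted p = 0.00417).

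Leaving out replicates 1 to 5 in turn kept 177 of 232, 157 of 228, 161 of 228, 51 of 59 and 25 of 26 calls, and 0 of the called values moved by over 1.5 times. The counts of genes called then ran from 1 to 3 in antimycin A in air (3 with all arrays), were 0 in the msn2/4 mutant (2) and in its difference from wild type (2), and ran from 1 to 2 for anaerobiosis in glucose against galactose (2) and from 0 to 2 for re-aeration in glucose against galactose (3).

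With Benjamini-Hochberg adjustment the counts were 7 in antimycin A in air, 5 in the msn2/4 mutant, 6 for the media in anaerobiosis, 7 with against without antimycin A, 7 for antimycin A in air against anaerobiosis, 4 for the mutant against wild type and 5 for the media in re-aeration. With fits to the groups compared they were 3 in anaerobiosis in galactose (6), 1 for the media in anaerobiosis, 1 with against without antimycin A (4), 0 for the mutant against wild type and 1 for the media in re-aeration. Quantile normalization gave 1 for the mutant against wild type and 5 for the media in re-aeration. The cause was not tested. The share of all genes called was worked out only for the main test by Holm. Counts under the alternatives therefore have no share of all genes beside them. A change under about 1 was often not callable with 3 arrays a group, and SCS7 with antimycin A had too few values. There was no fixed limit. A change of 0.57 was called for SUR2 in anaerobiosis in glucose. The larger change of -1.95 for OLE1 at 2 generations in the msn2/4 mutant was not called.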
